A study of Mus musculus with 2 samples.

Results

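The miR-17-92 cluster is a set of 6 microRNA (miRNA) hairpins carried by 1 long non-coding transcript, Mir17hg. Its members were taken as every miRNA gene of the count tables that lies inside Mir17hg on the same strand in the mouse annotation, which gave 6 of 1973 genes: Mir17, Mir18, Mir19a, Mir20a, Mir19b-1 and Mir92-1, the miR-92a copy of the cluster. The choice rested on position alone and used no measured value, though the cluster was picked for description with earlier results of these data known. The libraries were small RNA libraries from forebrain of B6NCrl mouse embryos, taken at 12.5 days and healthy per the labels, with males and females mixed in each pool. The single group had 2 biological replicates, a pool of 120 embryos and a pool of 68 embryos, and both used RNA shorter than 30 nt. No treatment, mutant or second tissue was part of the design, so the comparisons below are between hairpins cut from 1 transcript, between this cluster and its paralogues, and between the pools.

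A polycistronic miRNA cluster is copied into 1 long primary transcript, from which the nuclear enzyme Drosha cuts each hairpin. Dicer then trims each hairpin to a short duplex, and usually 1 of its arms is loaded into an Argonaute protein, where the bases at positions 2 to 8 (the seed) choose target messenger RNAs. The cluster is driven by MYC and E2F factors and is known for keeping progenitor cells dividing and alive: miR-17 and miR-20a limit the cell cycle inhibitor p21 and the death factor Bim. In the embryonic cortex it is known to hold neural progenitors in expansion, and its miR-92a arm limits Eomes (Tbr2), a factor of intermediate progenitors.

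The host gene Mir17hg (ENSMUSG00000089726.2) spans 115042879 to 115046727 on the plus strand of chromosome 14 in mm10. All 6 hairpins lay in its exon 2, which runs from 115043271 to 115046727. From the start of the first to the end of the last they spanned 836 bases, gaps included. Mir17 (ENSMUSG00000065508.1) came first, from 115043671 to 115043754, followed by Mir18 (ENSMUSG00000065403.1) from 115043851 to 115043946 and Mir19a (ENSMUSG00000065416.1) from 115044000 to 115044081. Mir20a (ENSMUSG00000065442.1) lay from 115044157 to 115044263, Mir19b-1 (ENSMUSG00000076256.1) from 115044305 to 115044391, and Mir92-1 (ENSMUSG00000076062.1) from 115044427 to 115044506. The gaps between neighbours were short, from 35 bases between Mir19b-1 and Mir92-1 to 96 bases between Mir17 and Mir18.

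The hairpins are printed because they are the units that were counted. They are given 5′ to 3′ on the plus strand, from RefSeq on GRCm38.p6, with the listed mature arms in capitals; each was identical in ends and sequence to the GENCODE M21 gene of the same name.
Mir17: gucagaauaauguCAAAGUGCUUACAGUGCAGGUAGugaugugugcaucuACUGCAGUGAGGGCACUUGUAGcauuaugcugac
Mir18: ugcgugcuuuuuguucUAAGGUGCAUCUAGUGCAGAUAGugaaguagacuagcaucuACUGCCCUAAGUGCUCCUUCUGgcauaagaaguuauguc
Mir19a: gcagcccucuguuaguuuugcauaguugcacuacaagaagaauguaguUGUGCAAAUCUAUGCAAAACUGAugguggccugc
Mir20a: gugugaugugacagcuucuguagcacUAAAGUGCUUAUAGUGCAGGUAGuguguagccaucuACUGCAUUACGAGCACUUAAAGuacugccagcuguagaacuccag
Mir19b-1: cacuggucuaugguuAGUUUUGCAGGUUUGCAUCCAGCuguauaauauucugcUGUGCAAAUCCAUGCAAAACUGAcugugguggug
Mir92-1: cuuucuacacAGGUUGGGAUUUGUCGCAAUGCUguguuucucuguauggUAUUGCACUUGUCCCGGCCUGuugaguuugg

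The arm that gives each hairpin its family falls into 4 seed classes. In the lines below the seed is in capitals, and positions are counted from 1 at the 5′ end. miR-17-5p and miR-20a-5p share the seed AAAGUGC and differ by the substitutions C1U and C12U. miR-18a-5p has the seed AAGGUGC and differs from miR-17-5p at 6 positions, of which A4G is the 1 inside the seed. miR-19a-3p and miR-19b-3p share the seed GUGCAAA and differ by U11C alone, and miR-92a-3p has the seed AUUGCAC.
miR-17-5p: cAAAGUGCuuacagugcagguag
miR-20a-5p: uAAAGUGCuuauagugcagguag
miR-18a-5p: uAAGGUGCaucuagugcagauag
miR-19a-3p: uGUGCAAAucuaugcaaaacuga
miR-19b-3p: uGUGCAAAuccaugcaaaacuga
miR-92a-3p: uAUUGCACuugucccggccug

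In replicate 1, 4333194 reads fell on miRNA genes in the sense direction, and in replicate 2, 4397107 reads. A level in CPM is a hairpin's count scaled to 1000000 such reads, and 3 reads, the limit that a count of 0 allows, correspond to 0.692 and 0.682 CPM. Reads that matched several places in the genome stood outside the gene counts, 46.0% and 45.5% of mapped reads. Since RNA under 30 nt is near the size of a mature miRNA and is not spread over a long gene, CPM are given per hairpin, and the members are also given per 100 bases of hairpin where their order is described. Among the neural marker miRNAs, 8 of 10 rows reached 10 reads in each library. The neural list summed to 28978 and 28523 CPM, most of it from Mir92b alone at 19420 and 19820 CPM. Its remaining rows together lay below the epithelial list, the mural and mesenchymal list and the endothelial Mir126a, given further below, in each library. Some neural rows are numbered copies, such as Mir9-2 and Mir9-3. Their shared sequence was not examined, so reads with several matches may be missing from them. The liver miRNA Mir122 stood at 10.4 and 7.73 CPM, and the muscle list had a summed level of 22.4 and 45.0 CPM with Mir133a-1 and Mir133a-2 at 0 reads. In such bulk tissue fewer cells of a type and less RNA per cell cannot be told apart.

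The 6 hairpins were read at very unequal levels, although they are cut from 1 transcript. Together they held 10.1% of assigned reads in replicate 1 (Wilson 95% interval 10.06% to 10.12%) and 10.3% in replicate 2 (10.25% to 10.31%), or 10.2% ± 0.136 (SD, n = 2). Mir17, Mir20a, Mir18 and Mir92-1 made up 99.8% ± 0.0384 of the reads of the cluster, and both miR-19 hairpins together 0.195% ± 0.0384. None of the 6 had a read on the opposite strand in either library. Intervals and the 3-read limit cover counting error only, since no molecular identifiers are described for these libraries. Whether library preparation captured the different hairpin sequences equally was not tested, and agreement between the replicates does not show it. Differences between hairpins here and below are therefore differences in reads, and need not equal those in abundance.

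Mir17, the first hairpin of the transcript, was the highest. It had 264627 reads in replicate 1 and 264832 in replicate 2, or 61070 and 60229 CPM, and had rank 3 among all genes in both libraries. Mir20a, which carries the same seed, had 101154 and 109511 reads, or 23344 and 24905 CPM, at ranks 9 and 8. Its highest library lay far below the lowest of Mir17, and Mir17 was 2.62 times Mir20a in replicate 1 and 2.42 times in replicate 2. Mir17 thus held 59.6% ± 1.38 of the cluster's reads and Mir20a 23.7% ± 0.768 (SD, n = 2).

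Mir18, whose seed differs from that of miR-17 by 1 base and whose hairpin is a known binding site of the splicing factor hnRNP A1, stood below both. It had 41809 and 44025 reads, or 9648 and 10012 CPM, and ranked 23 in both libraries. Mir92-1, the last hairpin, had 28525 and 32851 reads, or 6583 and 7471 CPM, and ranked 37 and 31. The values of these hairpins did not overlap, with Mir18 at 1.47 times Mir92-1 in replicate 1 and 1.34 times in replicate 2. The log2 difference from Mir17, on log2(CPM + 1), was -2.63 ± 0.0519 for Mir18 and -3.11 ± 0.143 for Mir92-1.

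The miR-19 hairpins were the lowest by a wide margin. Mir19a had 821 reads in replicate 1 and 613 in replicate 2, or 189.5 and 139.4 CPM, at ranks 189 and 213. Mir19b-1 had 152 and 148 reads, or 35.1 and 33.7 CPM, at ranks 263 and 270. Mir19a held 0.188% of the cluster's reads in replicate 1 (Wilson 95% interval 0.175% to 0.201%) and 0.136% in replicate 2 (0.125% to 0.147%). Both hairpins were well above the level of 3 reads, and the libraries of one did not overlap those of the other: Mir19a was 5.40 and 4.14 times Mir19b-1. Mir92-1, the next hairpin up, was 34.7 times Mir19a in replicate 1 and 53.6 times in replicate 2, the widest step in the order. Against Mir17 the log2 difference was -8.53 ± 0.297 for Mir19a, or 322 and 432 times lower in CPM, and -10.74 ± 0.0268 for Mir19b-1, or 1741 and 1789 times lower.

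The order of counted levels was therefore Mir17, Mir20a, Mir18, Mir92-1, Mir19a and Mir19b-1 in each library. Reads that matched several places stood outside these counts, so the steps that involve Mir92-1 and Mir19b-1 carry the limit described below. For the other members the part of such reads was not tested either. For all 5 neighbouring pairs in this order the replicates did not overlap, and the difference of the means exceeded the sum of the SDs. The smallest step by ratio was that from Mir18 to Mir92-1, 2803 CPM against a sum of SDs of 885 CPM. An exact sign-flip test of 2 pairs cannot go below p = 0.5, so the differences are stated against the spread alone. Per 100 bases of hairpin the means were 72201 CPM for Mir17, 22546 for Mir20a, 10240 for Mir18, 8784 for Mir92-1, 200.5 for Mir19a and 39.5 for Mir19b-1, in the same order. Levels did not follow the position in the transcript: the third and the fifth hairpins were low, while the fourth and the last stood among the high ones.

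**Figure D1:**
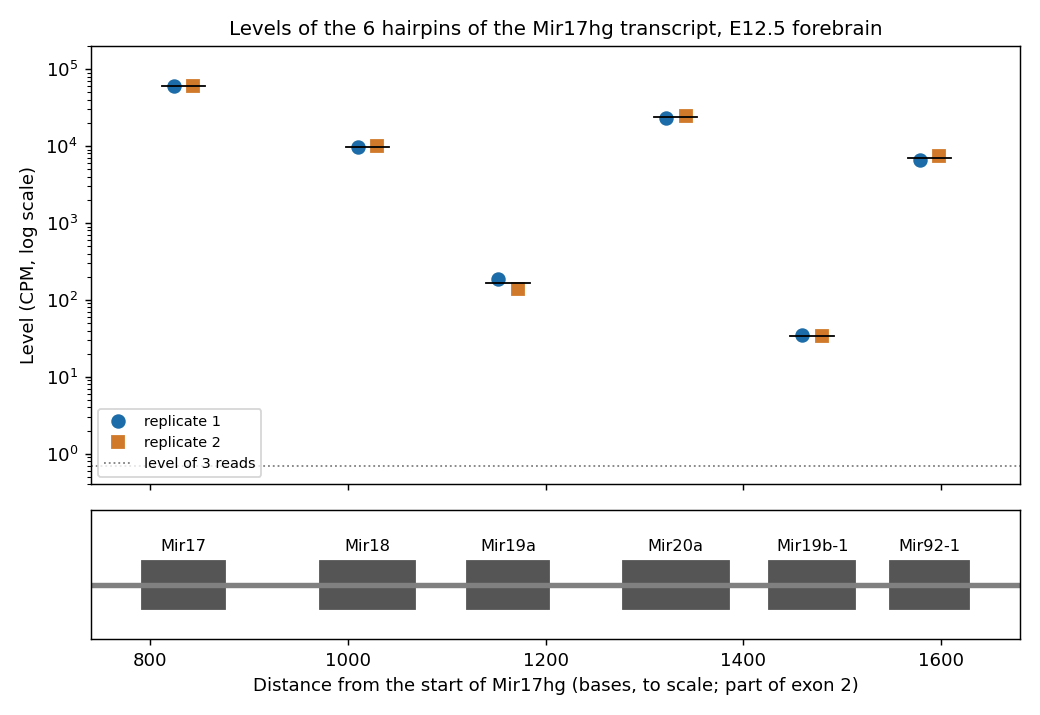
Level of each hairpin in CPM on a log axis (circles replicate 1, squares replicate 2, black lines the mean; the dotted line is the level of 3 reads) above a to-scale map of the hairpins, with the distance from the start of Mir17hg in bases. Mir19a at 189.5 and 139.4 CPM and Mir19b-1 at 35.1 and 33.7 CPM sit well below their neighbours on the same exon.

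A read that matches several genes equally cannot be given to 1 hairpin. Among the annotated M21 transcripts, the exact miR-19b-3p sequence occurred in 1 other gene, Mir19b-2, and the exact miR-92a-3p sequence in 1 other gene, Mir92-2, both on the X chromosome. The 9 other listed arms of the cluster, miR-19a-3p among them, occurred in no gene other than their own and the host. The genome outside annotated genes was not searched, and Mir19a had only 1 listed arm, so this does not show that these members lost no reads. Mir19b-1 and Mir19b-2 shared a stretch of 25 bases that runs 2 bases past the 5′ end of miR-19b-3p and 0 bases past its 3′ end. Mir92-1 and Mir92-2 shared 22 bases, 1 past the 5′ end and 0 past the 3′ end of miR-92a-3p. The levels of Mir19b-1 and Mir92-1 are therefore uncertain, since reads with several matches were counted in a row of their own, and the part of those reads in these levels was not tested. The counts do not separate the arms of a hairpin, so a level is that of all its reads.
The mature sequences and their flanks are shown for the shared pairs, with the arms in capitals. Mir19b-2 lies on chromosome X from 52741983 to 52742066, minus strand, and Mir92-2 from 52741838 to 52741928, minus strand.
Mir19b-2: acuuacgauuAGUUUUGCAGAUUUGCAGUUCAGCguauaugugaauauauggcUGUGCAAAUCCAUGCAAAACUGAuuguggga
Mir92-2: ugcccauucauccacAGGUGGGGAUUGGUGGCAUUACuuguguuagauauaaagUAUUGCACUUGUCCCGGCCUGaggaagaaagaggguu

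The hairpins were also described by length, base composition and folding. Lengths ran from 80 bases for Mir92-1 to 107 for Mir20a, with 82 for Mir19a and 87 for Mir19b-1, and GC content from 43.7% for Mir19b-1 to 47.5% for Mir92-1. The minimum free energy from RNAfold was -38.7 kcal/mol for Mir19a, -38.6 for Mir20a, -37.8 for Mir19b-1, -36.7 for Mir17, -34.0 for Mir92-1 and -29.2 for Mir18. By this estimate the most stable hairpin, Mir19a, and the least stable, Mir18, lay next to each other in the transcript. The GC content of miR-19a-3p, 34.8%, was the lowest of the family arms, and that of miR-19b-3p equalled that of miR-20a-5p at 39.1%. The motif UGU, searched in the loop between listed arms on the RNA strand, was present in 4 of the 5 members with 2 listed arms: Mir17, Mir20a, Mir19b-1 and Mir92-1, and not in Mir18. Of 401 mouse hairpins with loops of the same 13 to 18 bases, 32.2% held it. The motif UAGGG was found in 0 of the 6 hairpins and in 6.07% of 1005 mouse hairpins. These matches are a description and no site was measured.

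In the order of all genes, each member was described by the gene directly above and directly below it in mean level. Mir17 stood between Mir335 at 77130 CPM and Mir130a at 35501 CPM, and its replicates overlapped with neither. Mir20a stood between Mirlet7g at 25690 CPM and Mir93 at 22647 CPM, and its replicates overlapped those of Mir93 only. The neighbours of Mir18 were Mir130b and Mir181d, those of Mir92-1 were Mir30d and Mir15a, and those of Mir19a were Mir128-2 and Mir345, and in each case the replicates overlapped. Mir19b-1 lay between Mir1264 at 34.4 ± 15.4 CPM, with overlap, and Mir551b at 31.4 ± 0.971 CPM, without. Nearness in level was used here because 1 condition gives no pattern across conditions.

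The mouse genome holds 2 paralogues of the cluster: miR-106b, miR-93 and miR-25 in the minichromosome maintenance gene Mcm7 on chromosome 5, and Mir106a, Mir18b, Mir20b, Mir19b-2, Mir92-2 and Mir363 on the X chromosome. The Mir17hg cluster held the largest share of assigned reads of the 3, at 10.2% ± 0.136, against 3.94% ± 0.0328 for the Mcm7 cluster and 0.684% ± 0.0391 for the X-linked cluster (SD, n = 2). The family arms of the paralogues are shown with the seed in capitals, since within a family they differ from the members only outside it.
miR-106a-5p: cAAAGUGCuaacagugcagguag
miR-20b-5p: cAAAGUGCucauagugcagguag
miR-93-5p: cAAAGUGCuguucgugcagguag
miR-106b-5p: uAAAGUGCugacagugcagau
miR-18b-5p: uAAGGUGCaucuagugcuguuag
miR-25-3p: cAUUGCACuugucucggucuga
miR-363-3p: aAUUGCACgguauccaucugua
miR-92b-3p: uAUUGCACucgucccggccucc

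In the miR-17 seed family, Mir17 and Mir20a held 66.5% ± 0.109 of the reads over the 6 genes of the 3 clusters. Mir106b and Mir93 of the Mcm7 cluster held 30.1% ± 0.307, and Mir106a and Mir20b of the X-linked cluster 3.43% ± 0.198. Mir93 stood at 23348 and 21945 CPM, so its replicates overlapped those of Mir20a, while Mir106b at 15176 and 16263 CPM lay below both. miR-106a-5p differs from miR-17-5p by U10A alone, and Mir17 was 22.9 and 21.3 times Mir106a. A further gene with this seed, Mir6383, had 0 reads in both libraries.

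Mir18 held 97.6% ± 0.0921 of the reads of the miR-18 family, where its paralogue Mir18b had 996 and 1109 reads. The mature forms differ by A18U and A20U, and Mir18 was 42.0 and 39.7 times Mir18b. In the miR-19 family, Mir19a and Mir19b-1 held 94.4% ± 0.625, but of only 1026 and 810 reads. Mir19b-2, whose main arm is identical to that of Mir19b-1, had 53 and 49 reads, 12.2 and 11.1 CPM, and Mir19b-1 was 2.87 and 3.02 times as high. By these counts Mir19b-2 was the lowest gene of the X-linked cluster, at 218 and 253 times below Mir106a. The second lowest gene, Mir18b, was 11.6 and 11.2 times below Mir106a. The counts of Mir19b-1 and Mir19b-2, and every share or ratio that holds them, carry the limit given above for their shared arm.

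In the miR-92 family a gene outside the clusters, Mir92b, had the highest count. The values of Mir92-1 and Mir92-2 here, and every share that holds them, carry the limit given above for their shared arm. The listed arms of Mir92b had no exact copy in other RefSeq hairpins, but they were not searched in the annotated transcripts. Whether Mir92b also lost reads with several matches was not tested. Mir92-1 held 68.0% ± 1.95 of the reads within the 3 clusters, ahead of Mir363 with 7194 and 7644 reads, Mir25 with 5017 and 4438, and Mir92-2 with 2072 and 2408. Mir92b, a separate gene on chromosome 3 that is known from cortical progenitors, stood at 19420 and 19820 CPM, or 2.95 and 2.65 times Mir92-1. With Mir92b included, the share of Mir92-1 was 23.4% ± 1.38. miR-92b-3p differs from miR-92a-3p by U10C and G21C over 21 bases. Mir32 and Mir367, which carry the same seed, had 1715 reads in both libraries and 6 and 2 reads respectively. With these included too, Mir92-1 held 23.1% ± 1.38 of the 7 genes with the seed.

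The ratio of a member to its X-linked counterpart varied along the cluster. It was 22.1 ± 1.12 for Mir17 over Mir106a, 40.8 ± 1.61 for Mir18 over Mir18b, 14.9 ± 0.782 for Mir20a over Mir20b, 2.94 ± 0.108 for Mir19b-1 over Mir19b-2 and 13.7 ± 0.0880 for Mir92-1 over Mir92-2 (SD, n = 2). The lowest ratio belonged to a pair with an identical main arm. The other such pair, Mir92-1 and Mir92-2, lay close to Mir20a and Mir20b. For both pairs the ratio covers only reads assigned to a gene, and the part of the shared arm in it was not tested.

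**Figure D2:**
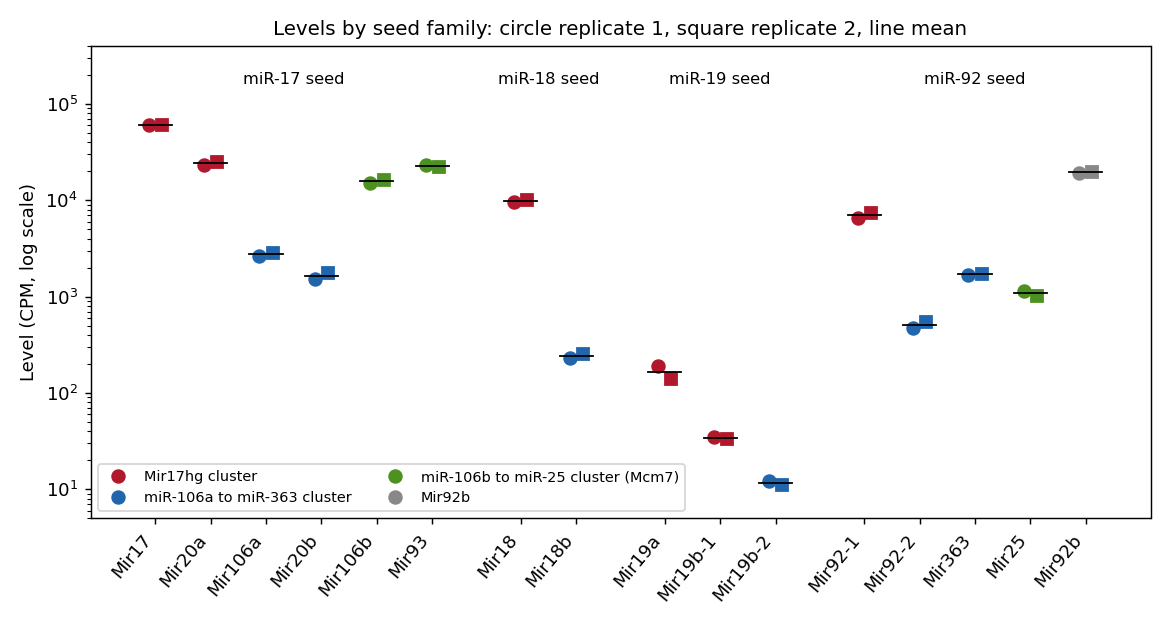
Level in CPM on a log axis of each gene of the 4 seed families, coloured by cluster (circles replicate 1, squares replicate 2, black lines the mean). The Mir17hg genes lead the miR-17, miR-18 and miR-19 families, the miR-19 genes reach 189.5 CPM at most, and Mir92b leads the miR-92 family at 19420 and 19820 CPM.

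Other miRNA clusters of these libraries also held hairpins of very unequal level. Of the groups of miRNA genes on 1 strand with gaps of at most 10 kb, 8 had 4 or more genes that reached 10 reads in each library. By summed level the Mir17hg cluster was the highest of the 8. By the span from its highest to its lowest such gene, 1741 and 1789 times, it had place 3, behind the groups from Mir487b to Mir1197 at 2552 and 2917 times and from Mir322 to Mir450-2 at 2255 and 3022 times. The narrowest span was that of the Mir302a to Mir302c group, at 8.49 and 8.80 times. Mir17 alone held 59.6% of the summed CPM of its cluster, against 79.6% for Mir322 and 22.3% for Mir487b. Shared sequence within the other groups was not examined, so their spans carry the same uncertainty.

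**Figure D3:**
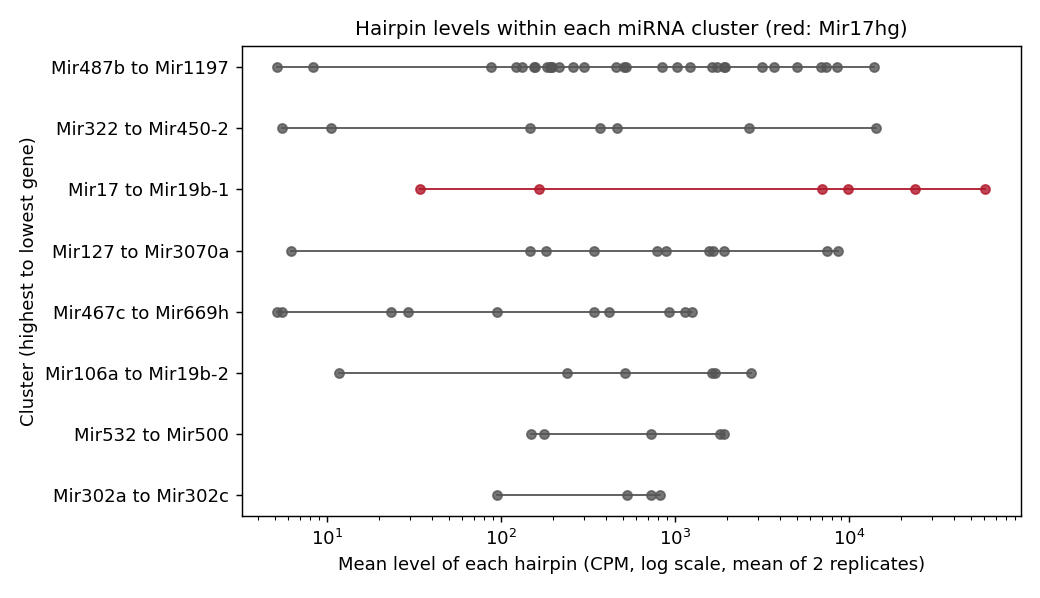
Mean level of each hairpin with at least 10 reads in both libraries (dots, CPM on a log axis) in the 8 miRNA clusters, ordered by span and named by their highest and lowest gene. In the Mir17hg cluster (red) 4 hairpins lie between 7027 and 60649 CPM and 2 hairpins at 164.4 and 34.4 CPM.

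Between the pools the members differed by 1.01-fold (Mir17) to 1.36-fold (Mir19a). Their coefficients of variation were 0.981% for Mir17, 2.62% for Mir18, 2.92% for Mir19b-1, 4.58% for Mir20a, 8.94% for Mir92-1 and 21.5% for Mir19a, with a median of 3.75%. Over the 511 genes tested, those whose summed count reached 10 reads, the median was 10.5%, and 4.89% over the 101 of them with at least 1000 CPM. Of the 6 members, 0 passed both a Benjamini-Hochberg adjusted p under 0.05 in Fisher's exact test (two-sided, over all 511 genes) and a 2-fold difference, a rule that called 2.74% of all genes tested. At the adjusted p alone 5 of 6 members passed, against 32.7% of all genes tested and 81.2% of the genes of at least 1000 CPM, and 5 had an unadjusted p under 0.05, against 39.9% of all genes tested. This test compares the reads of these 2 libraries and not conditions. With 1 library for each pool, differences between pools cannot be told apart from those between library preparations.

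By that test Mir92-1, Mir20a and Mir18 were higher in replicate 2, 3 of 6 members against 20.2% of all genes, with log2 ratios of 0.18, 0.09 and 0.05. Mir19a and Mir17 were lower, 2 of 6 members against 12.5% of all genes, with log2 ratios of -0.44 and -0.02. Mir19b-1 had a log2 ratio of -0.06 and an adjusted p of 0.849 by Fisher's exact test. The adjusted p was 4.9e-08 for Mir19a, the member with the largest difference, and 1.0e-06 for Mir17, whose levels differed 1.01-fold. With edgeR's TMM scaling the directions were kept for all 6 members, but Mir18 no longer passed, at an adjusted p of 0.495 by Fisher's exact test, where its range over the other settings was 2.9584e-07 to 0.00703. Over all genes TMM scaling moved the split of calls from 103 higher and 64 lower to 80 higher and 90 lower. The median log2 ratio was 0.02 over the members and 0.04 over all genes tested.

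Markers of other cell types also differed between the pools. The summed level of 7 epithelial miRNAs was 13628 CPM in replicate 1 and 10008 CPM in replicate 2, that of 4 mural and mesenchymal miRNAs was 12939 and 15633 CPM, and that of the endothelial miRNA Mir126a was 16564 and 21180 CPM. Of these 12 rows none was at 0. The 3 erythroid miRNAs summed to 326.8 and 250.9 CPM and the 2 leukocyte miRNAs with a row to 361.9 and 436.2 CPM. Their part in the differences of Mir19a and Mir92-1 between the pools was not tested.

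**Figure D4:**
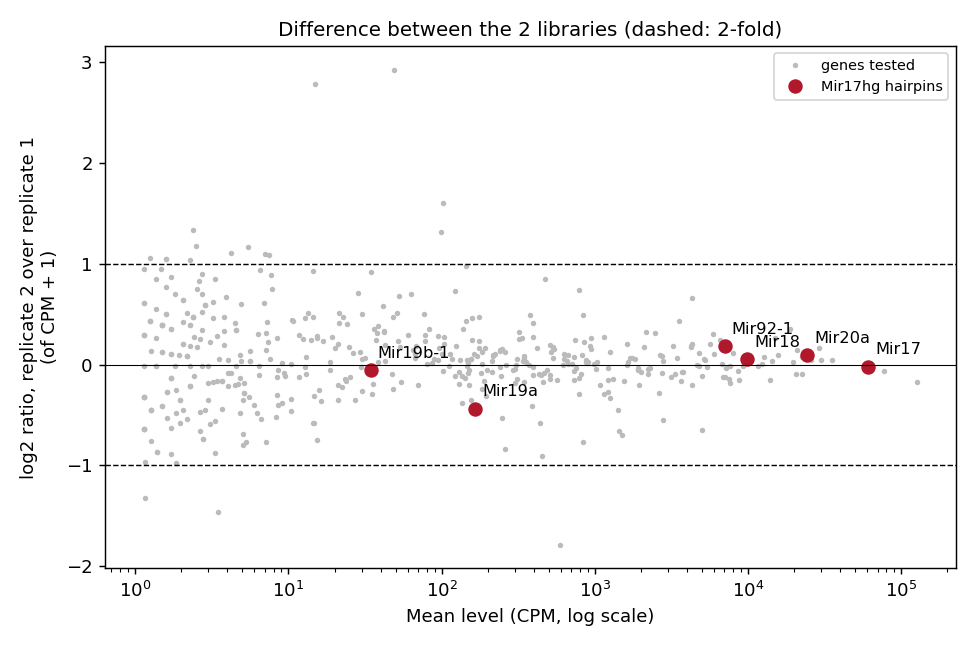
Log2 ratio of replicate 2 over replicate 1, on log2(CPM + 1), against the mean level in CPM on a log axis, for the 511 genes tested (grey) and the 6 Mir17hg hairpins (red); dashed lines mark 2-fold. All 6 hairpins lie between the dashed lines, with Mir19a lowest at -0.44 and Mir92-1 highest at 0.18.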

How the data were processed

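The authors counted reads per gene from alignments to mm10 with annotation M4, per the notes that accompany the deposited tables. Aligner, counter and trimming: not given in the sources used here. The deposited values are raw read counts for both strands, the gene strand and the opposite strand, of which the gene strand was used. Rows that name no gene held 61.0% and 60.6% of reads and were left out. Symbols and positions came from GENCODE M21 by Ensembl ID (1894 of 1973 genes matched), and sequences from RefSeq, where all 6 members matched by symbol.

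CPM were computed over assigned reads. Fisher's exact test with Benjamini-Hochberg adjustment ran across the 511 genes whose summed count reached 10 reads, after a check on simulated data. The simulated counts held counting error alone, so that check does not cover further spread between libraries. Each pool gave 1 library, called a biological replicate by the labels, so p-values measure counting error between these libraries. Genes named are the members, their paralogues, Mir92b, their neighbours in level, other carriers of the 4 seeds (added after the data were seen), listed markers, and the ends of each cluster. Alternatives covered scaling (edgeR 4.0.16 and DESeq2 1.42.0 in R 4.3.3), totals, hairpin length, pseudocounts, strand, read minimum and each replicate left out. Folding used RNAfold 2.7.2, and tests SciPy 1.17.1 in Python 3.11.15. The members and lists were chosen with earlier results of these data known.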

Additional observations from a re-analysis of the deposited data

Results flagged for a closer look

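Reads that matched several places numbered 4213961 in replicate 1 and 4224434 in replicate 2, and were picked out because they lie outside the gene counts and exceed what a count of 0 allows, as there were no control samples. The files do not say how many of them carry miR-19b-3p or miR-92a-3p, the arms of the cluster with an identical copy in the transcripts searched.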

How the results depend on the processing

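The order of the 6 members was the same per base of hairpin and in each replicate alone. The both-strand column could not change it, as no member had a read on the opposite strand. The share of the cluster was 9.90% in the both-strand column, 4.82% with all mapped reads as the total and 11.7% with the most abundant gene left out of the total, against 10.2%, which follows from the changed totals, and 10.1% to 10.3% with a replicate left out. The shares in the 4 seed families had the same values in the both-strand column. The counts of the 6 members are unchanged there, and an equal share needs unchanged summed counts of their paralogues as well. With 2 replicates, leaving out 1 gives the value of the other and is no check of stability. No setting gave the reads that matched several places to genes. With no 2-fold minimum 5 of 6 members were called between the libraries in place of 0, against 32.7% of all genes tested. With a minimum of 1 read, the both-strand column, TMM scaling or DESeq2 size factors, 0 were called with the 2-fold minimum, against 1.70% to 2.87% of all genes tested, and 4 or 5 at the adjusted p alone, against 21.2% to 34.0%. Of the log2 differences from Mir17, 3 of 5 moved by more than 1 SD per base of hairpin, and that of Mir19b-1 also with pseudocounts of 0.1 and 10 CPM; none changed sign. The comparison of libraries cannot leave out a replicate, as each side has 1 library. No paired analysis was possible because there is 1 group of 2 replicates. By depth Mir19b-1 was the most limited member, with 152 and 148 reads, and it also carries the limit of its shared arm.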
